A study of Danio rerio with 6 samples.

Results

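The nuclear and mitochondrial genes of the respiratory chain and ATP synthase were followed in whole zebrafish embryos mutant for hand2 and in their siblings at 19 hours post fertilization. Members were all probe sets of the Affymetrix zebrafish array with 1 gene symbol that starts with nduf, sdh, uqcr, cox and a digit, or atp5, whatever the case of the letters. This gave 101 of 15502 probe sets, for 91 of 8793 genes. Of these, 44 belonged by symbol to complex I, 7 to complex II, 8 to complex III, 23 to complex IV and 19 to complex V, the ATP synthase. They included 18 probe sets of assembly factors and regulators and 3 probe sets of COX1, the member encoded on the mitochondrial chromosome. The mutant group was 3 arrays of embryos sorted as hand2 mutants (hanS6 allele), and the wild-type group was 3 arrays of their wild-type siblings, which can include heterozygotes since sorting was by reporter expression. The embryos came from 3 independent crosses of heterozygotes, were kept at 28.5 degrees Celsius and were told apart by the heart reporter Tg(myl7:egfp). Each array held RNA of a pool of 10 to 25 whole embryos, so fewer cells of a type and less RNA per cell cannot be told apart.

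The respiratory chain lies in the inner mitochondrial membrane. Complexes I and II pass electrons from NADH and succinate to ubiquinone, complex III passes them on to cytochrome c, and complex IV to oxygen. Complexes I, III and IV pump protons, and complex V uses the proton gradient to make ATP. Most subunits are encoded in the nucleus and a few, such as COX1, in mitochondrial DNA. The genes are active in all tissues, and heart and skeletal muscle are rich in mitochondria.

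The values are hybridisation signals, 1 per probe set and array, on a linear scale, with trimmed means of 500.1 on every array as deposited. As a check of the labels, hand2 signal was 348.9, 447.7 and 292.2 on the sibling arrays, against 52.8, 50.9 and 45.1 on the mutant arrays, a log2 difference of -2.51 ± 0.21 (± standard error here and below; limma, adjusted p = 0.0051). Log2 signals of any 2 arrays correlated at 0.949 to 0.973 over the 15502 probe sets. Markers of 8 tissues, the yolk layer among them, were listed to check the labelled whole embryos. Tested were 5 of 9 skeletal muscle, 5 of 7 heart muscle, 4 of 6 blood and 4 of 5 yolk markers. The other lists were tested in full. No tested marker was at background on all 6 arrays. Since the dimmest probe sets were left out before testing, this check could hardly fail and says little about the tissues present. Background was taken as the brightest of 17 Tag control probe sets of the same array, 57.0 to 122.3. Since the labels tie no array to a cross, p-values measure the spread between these pools. The comparison of genotypes asks which transcripts differ when hand2, a transcription factor gene of heart, fin and pharyngeal arch development, is mutated.

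No respiratory chain or ATP synthase member passed the test, yet nearly all of them had slightly lower signal in the mutants. Of the 101 probe sets, 95 (87 genes) were bright enough to be tested. None had an adjusted p under 0.05, against 0.0086% of the 11626 tested probe sets, which is hand2 alone; the members' adjusted p ran from 0.942 to 0.999 (limma). Fitted values were lower in the mutant for 88 of the 95 members, against 46.2% of all tested probe sets. The median log2 difference of the members was -0.17, with a range from -0.56 to 0.17, beside 0.02 for all tested probe sets. After quantile normalization, which gives every array the same distribution of signals, 80 of 95 were lower, against 52.3% of all, with a median of -0.12 beside -0.011.

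The differences were small against the spread of the arrays. At an unadjusted p under 0.05, 2 members, ndufa11 and atp5if1a, were lower and 0 were higher in limma, against 1.03% and 2% of all tested probe sets. With the replicate number as a block 8 were lower, against 2.6%, and 0 higher, against 4.82%; none passed after adjustment (limma, smallest adjusted p = 0.64). After quantile normalization 2 were lower, against 1.31%, and 1 higher, against 1.5%, and with the block as well 8 were lower, against 3.35%, and 1 higher, against 3.57%. Single arrays set this count. It was 21, all lower, without mutant replicate 3, against 4.69% of all tested probe sets, and 8 without wild-type replicate 1, against 2.61%. It was 1 with the wild-type or the mutant array of replicate 2 left out, against 0.516% and 0.619% lower, and 1 with both left out, against 0.378%. It was 0 with wild-type replicate 3 or mutant replicate 1 left out, against 0.507% and 0.714%. By other settings it was 1 with no intensity filter (against 1.34% lower), 5 with a common median (1.88%) and 1 with no intensity trend (0.903%), all lower. The 3 mutant arrays lay below all 3 sibling arrays for 3 members, against 3.04% of all tested probe sets, which is near the background share, and above them for 0, against 3.71%. After quantile normalization they lay below for 5, against 4.09%, and above for 1, against 2.85%. Leaving out 1 array moved the fitted difference by over 1.5 times, for at least 1 of the 6 arrays, in 88 of 95 members and changed its sign in 29. Within a genotype, the coefficient of variation of a member's signal had a median of 10.3% in siblings and 14.2% in mutants.

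**Figure D1:**
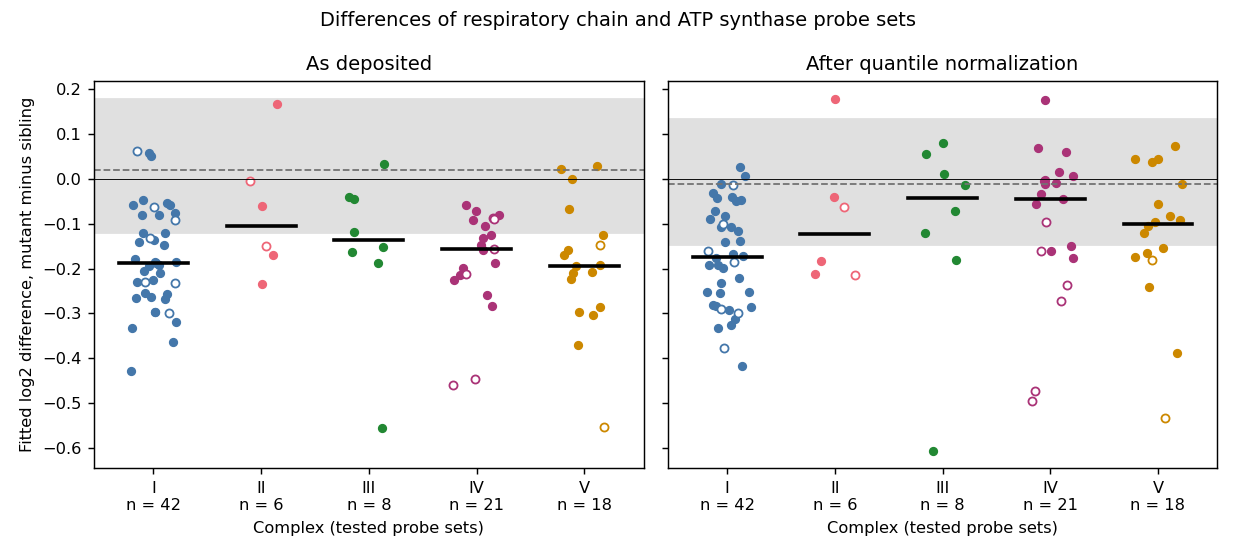
Each point is a tested probe set, placed by its fitted log2 difference (mutant minus sibling, log2(signal + 16)) and by complex, as deposited on the left and after quantile normalization on the right; open points are assembly factors and regulators, and sideways jitter has no meaning. Black bars are the complex medians (from -0.10 to -0.19 as deposited), the dashed line is the median of all 11626 tested probe sets and the grey band their middle 50%.

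Complex I, the NADH dehydrogenase, held the most members, and most of them had lower values under both scalings. The fitted value was lower for 39 of 42 tested probe sets, and the median was -0.19 (range -0.43 to 0.062). After quantile normalization 40 were lower, with a median of -0.17. The median was -0.076 without mutant replicate 2. The complex I member of smallest p was ndufa11, a subunit of the membrane arm. Its signals were 1745.5, 1887.6 and 2306.6 in siblings and 1399.9, 1276.3 and 1730.4 in mutants. All 3 mutant arrays lay below all 3 sibling arrays as deposited, but after quantile normalization mutant replicate 3 lay above wild-type replicate 1. The difference was -0.43 ± 0.16 (limma, adjusted p = 0.942). The matrix arm subunit ndufa12 was at 2112.7, 2310.4 and 2380.9 in siblings and 1943.1, 1923.6 and 1770.6 in mutants. Its mutant arrays, too, lay below every sibling array, and they did so after quantile normalization as well (-0.27 ± 0.12 as deposited, -0.25 after it). Signals of ndufs7, a core subunit that carries an iron-sulphur cluster, were 3427.0, 3574.7 and 4148.4 in siblings and 3014.0, 2609.0 and 3482.3 in mutants. Here mutant replicate 3 lay above wild-type replicate 1, so the groups overlapped (-0.30 ± 0.15; -0.40 with mutant replicate 3 left out and -0.19 with mutant replicate 2 left out).

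Other bright complex I members overlapped between genotypes. Signals of ndufa4a were 6835.3, 7518.8 and 7451.4 in siblings and 6308.4, 5714.1 and 6915.2 in mutants, with a difference of -0.21 ± 0.13 as deposited and -0.073 after quantile normalization. Its symbol places it in complex I, although in mammals the protein is known as a subunit of complex IV. The membrane arm subunit ndufb8 was at 4297.0, 4070.0 and 4851.7 in siblings and 3724.7, 3357.9 and 4596.6 in mutants (-0.19 ± 0.15). For both, mutant replicate 3 was within the sibling range and mutant replicate 2 was lowest. After quantile normalization the groups of ndufa4a and ndufs7 did not overlap. Beside ndufa11 and ndufs7, the accessory subunits ndufs5 (-0.36 ± 0.22, from -0.55 to -0.16 with single arrays left out) and ndufs6 (-0.33 ± 0.17, from -0.47 to -0.21) had an unadjusted p under 0.05 with the block. Grouped after the values were seen, the 6 probe sets of core subunits, those shared with bacteria, had a median of -0.058 and the 29 of accessory subunits -0.19. These medians were -0.045 and -0.18 after quantile normalization, and the difference between the groups was not tested. Core members near 0 were ndufs8a (0.052 ± 0.14) and the second probe set of ndufv2 (-0.059 ± 0.13), whereas the first probe set of ndufv2 gave -0.21 ± 0.17. The 3 probe sets of ndufab1a, the mitochondrial acyl carrier protein, differed by -0.08 ± 0.19, -0.12 ± 0.15 and -0.048 ± 0.13, and that of ndufab1b by -0.22 ± 0.15.

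**Figure D2:**
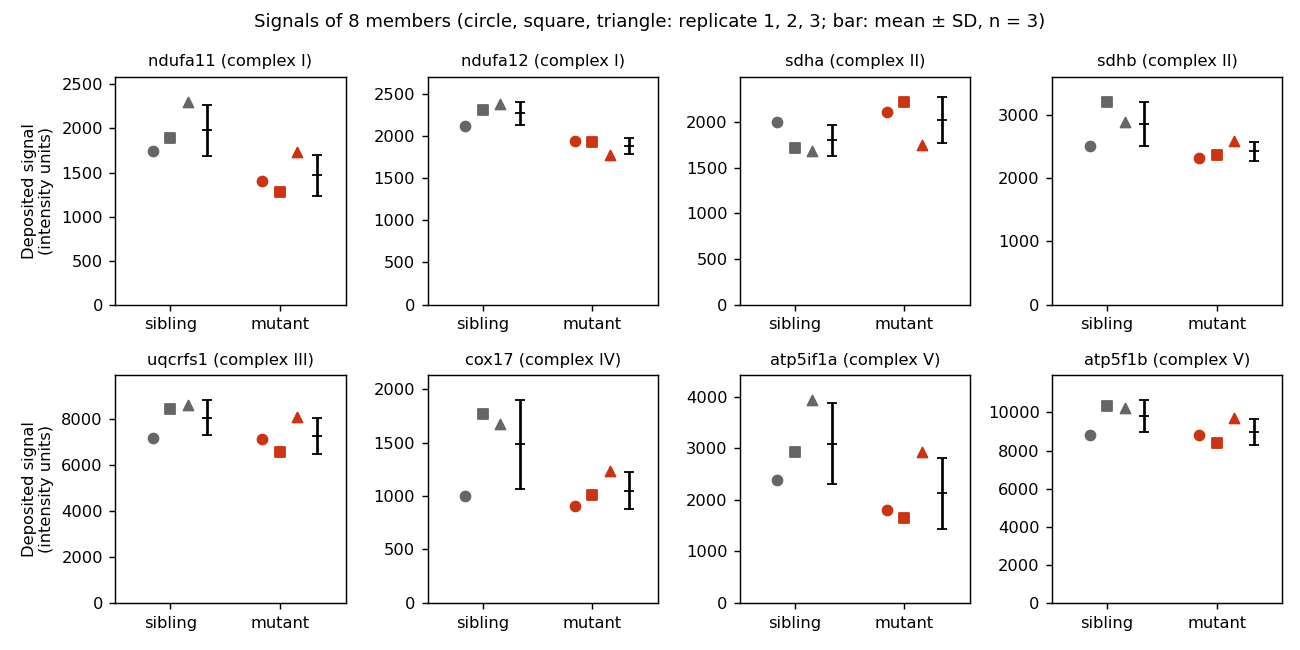
Deposited signals (linear intensity, axes from 0) of 8 members on the 3 sibling and 3 mutant arrays, with the mean ± SD (n = 3) beside each group. The mutant arrays lie below all sibling arrays for ndufa11 and ndufa12, sdha is the member with the highest fitted difference, 0.17, and the groups overlap in the other 6 panels.

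Complex II, succinate dehydrogenase, which also works in the tricarboxylic acid cycle and is wholly encoded in the nucleus, had members of both directions. The catalytic flavoprotein gene sdha was the tested member with the highest fitted difference, 0.17 ± 0.14, which was 0.097 with mutant replicate 2 left out and 0.27 with mutant replicate 3 left out. Its signals were 1996.2, 1718.5 and 1676.8 in siblings and 2109.0, 2224.0 and 1743.3 in mutants, and it was higher in the mutant at all 3 replicate numbers although the groups overlapped. The iron-sulphur subunit gene sdhb was at 2503.6, 3201.6 and 2889.7 in siblings and 2312.6, 2374.6 and 2588.0 in mutants. It was lower at all 3 replicate numbers, with a difference of -0.23 ± 0.14, and -0.15 with wild-type replicate 2 left out. The membrane anchor genes were sdhc, at 2190.5, 2398.4 and 3107.7 in siblings and 2422.0, 2249.7 and 2645.8 in mutants (-0.06 ± 0.16), and sdhdb, at 1289.2, 1261.3 and 1342.9 in siblings and 1270.5, 928.2 and 1291.4 in mutants (-0.17 ± 0.16). In sdhdb mutant replicate 2 stood apart below the other 5 arrays. The complex's median was -0.10 over 6 tested probe sets, 5 of them lower, and -0.12 after quantile normalization. Leaving out mutant replicate 2 gave -0.0025 and leaving out mutant replicate 3 gave -0.19; leaving out wild-type replicate 3 gave -0.051 and leaving out wild-type replicate 1 gave -0.17.

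Complex III, the cytochrome bc1 complex, had a median of -0.14 over 8 tested probe sets, of which 7 were lower, and -0.043 with 5 lower after quantile normalization. Leaving out wild-type replicate 3 gave -0.060, leaving out mutant replicate 2 gave -0.076 and leaving out wild-type replicate 1 gave -0.21. Signals of uqcrfs1, the Rieske iron-sulphur protein, were 7176.8, 8417.1 and 8592.0 in siblings and 7117.6, 6563.7 and 8090.1 in mutants. The groups overlapped, and the difference of -0.15 ± 0.14 was 0.011 after quantile normalization. The hinge protein gene uqcrh was at 5954.3, 6286.2 and 5969.2 in siblings and 5139.4, 5917.7 and 6679.4 in mutants, with the highest value in mutant replicate 3 (-0.046 ± 0.14 as deposited, 0.056 after quantile normalization). The core protein gene uqcrc1 was at 3329.1, 3555.7 and 3246.7 in siblings and 3343.6, 3405.3 and 3623.3 in mutants (0.034 ± 0.12). For uqcrc2a, another core protein gene, the brighter probe set differed by -0.19 ± 0.15. The dimmer one, at 87.2, 79.9 and 108.2 in siblings and 58.6, 93.5 and 31.4 in mutants, differed by -0.56 ± 0.29. It was above the Tag controls on 2 of the 3 arrays of each genotype, and at replicate 2 its mutant value was the higher one. Its paralogue uqcrc2b differed by -0.12 ± 0.13.

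Complex IV, cytochrome c oxidase, had lower fitted values in all 21 tested probe sets as deposited and in 16 after quantile normalization. The median was -0.16 as deposited and -0.045 after quantile normalization. Leaving out mutant replicate 2 gave -0.085, and leaving out mutant replicate 3 gave -0.24. COX1, the catalytic subunit that holds haem and copper, was measured by 3 probe sets of 1 transcript. The first was at 17499.9, 24342.5 and 20730.8 in siblings and 17822.3, 15798.5 and 22506.5 in mutants, the second at 18094.7, 25779.8 and 22478.6 in siblings and 17522.4, 15739.0 and 22141.0 in mutants and the third at 19006.8, 27170.1 and 24663.2 in siblings and 18239.0, 16728.6 and 23126.3 in mutants. On all 3, wild-type replicate 2 was highest and mutant replicate 2 lowest, and the differences were -0.16 ± 0.18, -0.26 ± 0.18 and -0.28 ± 0.18. After quantile normalization all 3 had higher values in the mutant (0.18, 0.068 and 0.059). The first then had an unadjusted p of 0.020, where 1.5% of all tested probe sets were higher at a p under 0.05, and did not pass (limma, adjusted p = 0.958). Values after quantile normalization are set by rank, and for COX1 they reflect its rank among the brightest probe sets. The standard error of the first probe set was 0.063 on that scaling, beside 0.18 as deposited. The direction of COX1 therefore depended on the scaling.

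The paralogous nuclear subunits of complex IV differed little and overlapped between genotypes. Without COX1, the 12 tested nuclear subunit probe sets had a median of -0.13 as deposited and -0.022 after quantile normalization. Of the subunit 5a genes, cox5aa was at 4429.5, 4010.4 and 4953.4 in siblings and 4367.8, 3811.4 and 4688.7 in mutants (-0.057 ± 0.14) and cox5ab at 2816.7, 2310.9 and 3039.8 in siblings and 2536.5, 2005.5 and 2560.9 in mutants (-0.20 ± 0.16). In both, mutant replicate 2 was the lowest array. Of the subunit 6b genes, cox6b2 was at 9832.3, 10655.6 and 12265.6 in siblings and 8715.2, 7800.7 and 12074.1 in mutants (-0.22 ± 0.18), and cox6b1 at 246.4, 495.0 and 182.3 in siblings and 266.9, 376.6 and 186.6 in mutants (-0.08 ± 0.35). In cox6b1 the arrays of replicate 2 were the highest of both genotypes, and the spread between arrays exceeded the difference between genotypes. Differences were -0.12 ± 0.15 for cox6a1, -0.19 ± 0.14 for cox7a2a, -0.10 ± 0.14 for cox8a and -0.091 ± 0.13 for cox7a2l, known in mammals to join complexes III and IV in supercomplexes. Of subunit 4, only the genes cox4i1l and cox4i2 were among the members. Both were at or below the Tag controls on all 6 arrays, at 7.7 to 28.9 and 20.1 to 71.8. They were too dim to be tested.

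Complex V makes ATP with a catalytic F1 head, a membrane ring and a stalk that joins them. The fitted value was lower for 16 of 18 tested probe sets (median -0.19), and for 14 after quantile normalization (median -0.10). The median was -0.092 without mutant replicate 2. The catalytic beta subunit gene atp5f1b was at 8818.2, 10342.4 and 10251.8 in siblings and 8820.2, 8392.2 and 9712.9 in mutants. Its difference of -0.13 ± 0.13 was 0.037 after quantile normalization. The 3 genes of the ring subunit c, whose mature proteins are alike, were atp5mc3b at 11770.9, 15602.4 and 15052.8 in siblings and 10946.1, 10036.6 and 13863.5 in mutants, atp5mc1 at 5145.7, 5687.5 and 6168.4 in siblings and 5426.7, 4369.3 and 5089.3 in mutants, and atp5mc3a at 7299.9, 5139.3 and 6244.1 in siblings and 6781.4, 3922.5 and 6178.6 in mutants. In each, mutant replicate 2 was lowest and the groups overlapped, with differences of -0.29 ± 0.17, -0.19 ± 0.14 and -0.17 ± 0.22. The membrane subunit gene atp5mf was at 4956.0, 4753.9 and 6569.0 in siblings and 4036.7, 3657.5 and 5566.4 in mutants and was lower at all 3 replicate numbers (-0.30 ± 0.19; -0.24 after quantile normalization). Its difference was -0.16 with wild-type replicate 3 left out and -0.48 with mutant replicate 3 left out. For atp5md, a small membrane subunit, all 3 mutant arrays lay below the sibling arrays as deposited (-0.16 ± 0.12). After quantile normalization its groups overlapped, with a difference of -0.12. Grouped by symbol after the values were seen, the 4 subunits atp5f1b, atp5f1c, atp5f1d and atp5f1e had a median of -0.064. The 12 other subunits had -0.20. After quantile normalization these were 0.040 and -0.11, and the difference between the groups was not tested.

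The member of lowest fitted value among those above background on all arrays was a regulator. The gene atp5if1a encodes the inhibitor that keeps ATP synthase from running in reverse, and is the gene of the zebrafish anaemia mutant pinotage. Its signals were 2390.6, 2936.8 and 3938.7 in siblings and 1804.3, 1647.2 and 2920.7 in mutants. It was lower at all 3 replicate numbers, while mutant replicate 3 lay within the sibling range. The difference was -0.55 ± 0.24 as deposited and -0.53 after quantile normalization (limma, adjusted p = 0.942), and it was -0.81 with mutant replicate 3 left out or -0.36 with wild-type replicate 3 left out. Its paralogue atp5if1b was at 881.4, 853.8 and 751.2 in siblings and 724.3, 732.7 and 777.6 in mutants (-0.15 ± 0.14).

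Assembly factors and regulators had lower fitted values in 16 of 17 tested probe sets as deposited and in 17 after quantile normalization, and subunits in 72 and 63 of 78. Their medians were -0.15 and -0.21, beside -0.17 and -0.10 for subunits, and the difference between the 2 classes was not tested. Most assembly factors and regulators were dimmer than most subunits, and the scaling moved other probe sets by their signal too. The median of non-members went from 0.056 to -0.021 in group 5 of 10 by rising mean signal. In the brightest 10% it went from -0.098 to -0.0054. The copper chaperone cox17 was at 1003.9, 1766.1 and 1678.6 in siblings and 903.1, 1013.9 and 1237.2 in mutants. Both genotypes were lowest at replicate 1, and the difference was -0.46 ± 0.22, or -0.72 with wild-type replicate 1 left out and -0.31 with wild-type replicate 2 left out. Signals of cox14, which assists the making of COX1 protein, were 583.7, 688.5 and 800.7 in siblings and 412.1, 407.4 and 735.3 in mutants (-0.45 ± 0.24); mutant replicate 3 overlapped the siblings, and the difference was -0.72 with that array left out and -0.31 with mutant replicate 2 left out. With the block both had an unadjusted p under 0.05 (0.013 and 0.020, limma), and neither passed after adjustment. The haem synthesis gene cox10 differed by -0.087 ± 0.14 and -0.09 ± 0.28 on its probe sets. The complex I assembly gene ndufaf1 differed by -0.064 ± 0.14 and -0.091 ± 0.20. The complex II assembly genes sdhaf2 and sdhaf4 differed by -0.15 ± 0.20 and -0.004 ± 0.16.

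The 6 probe sets too dim for the test were those of ndufa4b, sdhaf3, cox4i1l and cox4i2 and the second probe sets of ndufb6 and atp5l. All but ndufa4b were at or below the Tag controls on every array; ndufa4b was above them in mutant replicate 2 alone. The other probe sets of ndufb6 and atp5l were tested, and differed by -0.12 ± 0.14 and -0.22 ± 0.15.

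The members' signals varied by array as well as by genotype. Taken from each probe set's mean over the 6 arrays, the members' median deviation was 0.012, 0.052 and 0.19 on sibling arrays 1 to 3 and -0.10, -0.24 and 0.10 on mutant arrays 1 to 3. Mutant replicate 3 thus lay above 2 of the 3 sibling arrays. Mutant replicate 2 had the lowest signal of the 6 arrays for 64 of 95 members, against 22.8% of all tested probe sets. Wild-type replicate 3 had the highest signal for 51, against 17.6%. After quantile normalization these counts were 57 and 45, and the shares over all tested probe sets were not computed for that scaling.

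By replicate number, the members' median log2 difference was -0.11, -0.36 and -0.087 at numbers 1, 2 and 3, and -0.057, -0.22 and -0.055 after quantile normalization. Of 95 members, 73, 82 and 68 were lower at the 3 numbers, against 5745, 5700 and 5393 of all 11626 tested probe sets. After quantile normalization 65, 75 and 60 members were lower, against 6063, 6064 and 5965 of all. At all 3 numbers 48 were lower, against 14.7% of all tested probe sets, and after quantile normalization 33, against 16.7%. Higher at all 3 numbers were 1 (sdha), against 16.2%, and 5 after quantile normalization, against 12.6%. Complex I had -0.13, -0.39 and -0.081, complex IV -0.087, -0.37 and -0.088, and complex V -0.10, -0.37 and -0.11. Complex III was the one whose largest difference was at number 3, with -0.089, -0.098 and -0.15. Complex II had -0.0062, -0.26 and -0.028. Without both arrays of replicate 2, a choice made after the data were seen, 79 of 95 members were lower, against 46.5% of all, and the median was -0.085. Without mutant replicate 2 alone 76 were lower, against 46.7%, with a median of -0.082.

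**Figure D3:**
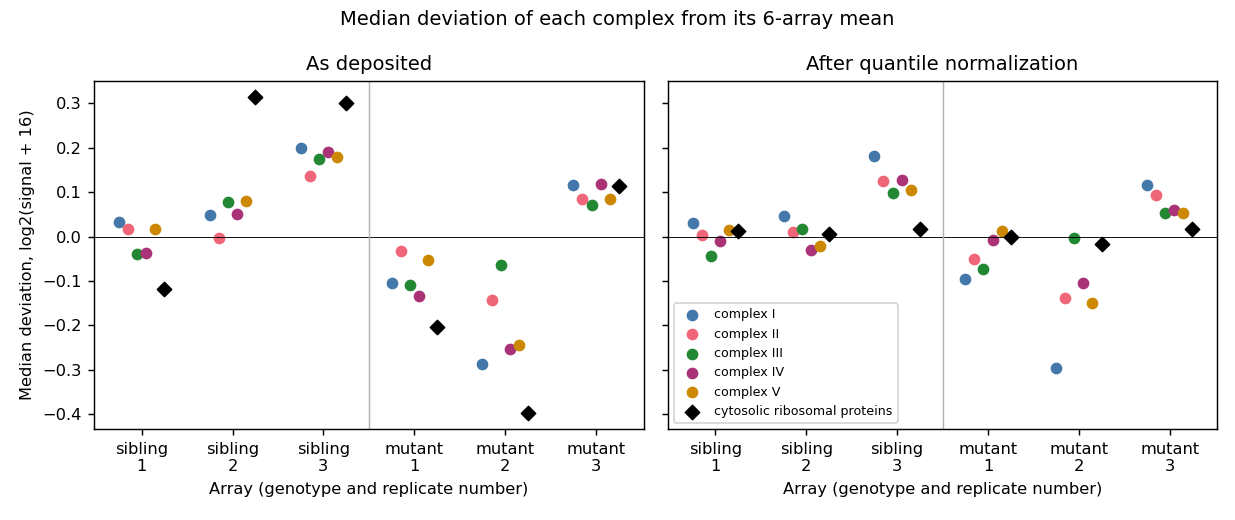
Median deviation of each complex on each array from its own mean over the 6 arrays (log2(signal + 16)), as deposited on the left and after quantile normalization on the right, with cytosolic ribosomal proteins as black diamonds. As deposited, the ribosomal median is lowest on the array of mutant replicate 2 (-0.40) and highest on that of wild-type replicate 2 (0.31). After quantile normalization, which takes out a shift shared by most of the brightest probe sets, the ribosomal median is near 0 on all arrays. On mutant replicate 2 and wild-type replicate 3, complex I is then at -0.30 and 0.18 and complex IV at -0.10 and 0.13.

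The scaling of the arrays bore on the bright members most. As deposited, bright probe sets as a whole were lower in the mutants: of the brightest 10% of tested probe sets, 72.5% had a lower fitted value (median -0.10), and 52.9% did after quantile normalization. These held 57 of the 95 members, among them 14 of complex IV, 16 of complex V and 7 of complex III, but 18 of the 42 of complex I. Among them the members' median was -0.17 beside -0.098 for the other probe sets as deposited, and -0.073 beside -0.0054 after quantile normalization. Among the next brightest 10%, with 20 members of which 15 were of complex I, the members' median was -0.19 beside -0.0061, and -0.19 beside -0.010 after quantile normalization. The 99th percentile of signal was lowest in mutant replicate 2 (9493) and highest in wild-type replicate 2 (12859). The part of this difference between arrays in the members' values was not tested beyond the scalings given.

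**Figure D4:**
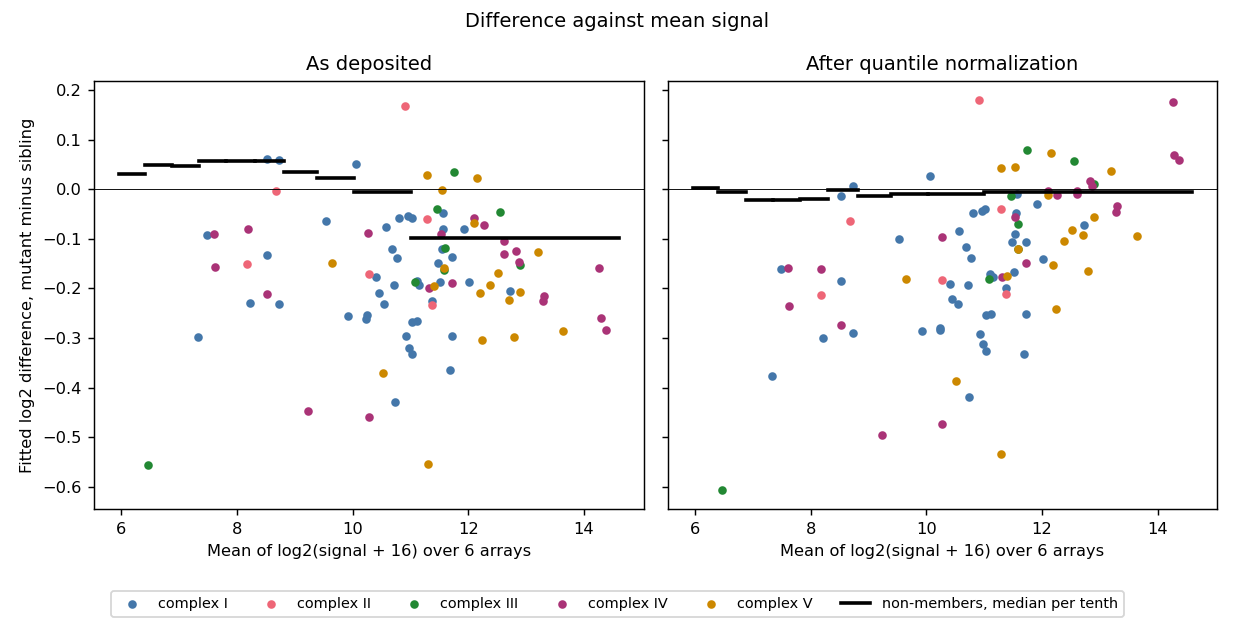
Fitted log2 difference of each tested member (mutant minus sibling) against its mean log2(signal + 16), coloured by complex, with black steps for the median of all non-members in each 10% of mean signal. The step of the brightest 10% is at -0.098 as deposited and at -0.0054 after quantile normalization, and the complex I points between 10 and 12 on the signal axis lie mostly below the steps in both panels.

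Other genes of the pathway were read from lists, and none of their genes passed. Of 18 tested probe sets of other respiratory chain and assembly genes (15 of 30 listed genes), 10 were lower, with a median of -0.050. Cytochrome c itself (cycsb, 0.078 ± 0.14) and the cytochrome c1 gene of complex III (cyc1, -0.064 ± 0.13) were near 0. Of this list, the ATP synthase assembly gene atpaf1 was at 59.4 ± 18.2 among siblings and 96.1 ± 5.6 among mutants on 1 dim probe set (0.60 ± 0.22), while its other probe sets differed by 0.086 and 0.029. The complex I assembly gene ecsit was at 144 ± 17.9 and 210.4 ± 34.7 (each mean ± SD of 3 arrays; 0.50 ± 0.20; limma, adjusted p = 0.942). Mitochondrial ribosomal proteins, which translate COX1 and the other mitochondrial messages, were lower in 55 of 69 probe sets, with a median of -0.11, and in 59 after quantile normalization, with a median of -0.14. Among them mrpl20 was at 1473 ± 162 and 1160 ± 98.0 with no overlap between genotypes (-0.34 ± 0.14), and mrps10 differed by -0.32 ± 0.16.

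The lists of the tricarboxylic acid cycle, protein import and the regulators were mixed in direction, whereas most carriers and porins were lower. Of 21 tested probe sets of the cycle and pyruvate dehydrogenase (17 of 21 listed genes), 10 were lower and 11 higher (median 0.0082, and -0.021 after quantile normalization). The isocitrate dehydrogenase gene idh3b gave 0.46 ± 0.21 on a dim probe set and 0.055 on a brighter one, and idh3a gave 0.43 ± 0.23 and -0.20. Of 9 probe sets of mitochondrial carriers and porins (8 of 16 listed genes), 8 were lower (median -0.14), and 6 after quantile normalization (median -0.081). Among them the phosphate carrier gene slc25a3b was at 11939 ± 2180 and 9684 ± 566 (-0.29 ± 0.15 as deposited). Protein import genes had 10 of 21 lower (median 0.0078, and -0.010 after quantile normalization; timm21 0.33 ± 0.21, tomm34 0.26 ± 0.17). Of 12 probe sets of regulators of mitochondrial genes (10 of 18 listed genes), 7 were higher (median 0.083). The coactivator gene ppargc1b was at 96.7, 113.2 and 158.4 among siblings and 164.8, 303.8 and 217.1 among mutants on the first of its probe sets (0.80 ± 0.26, limma, adjusted p = 0.942) and differed by 0.27 on the other; yy1a differed by 0.26 ± 0.18. Glycolysis genes (21 of 29 listed) had 14 of 23 probe sets lower (median -0.030; aldocb -0.31 ± 0.15, gapdh -0.40 ± 0.21).

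Cytosolic ribosomal proteins, a bright list outside the mitochondrion, were lower in 78 of 78 probe sets as deposited, with a median of -0.32, and in 43 after quantile normalization, with a median of -0.010. The probe sets of smallest p, rpl31 (-0.49 ± 0.20) and rpl5a (-0.60 ± 0.26), did not pass. At replicate numbers 1, 2 and 3 the list's median was -0.087, -0.71 and -0.18 as deposited. Quantile normalization takes out a shift shared by most of the brightest probe sets, so the ribosomal median after it was largely set by the method. After it the ribosomal list had -0.010, complex I -0.17, and complexes II to V -0.12, -0.043, -0.045 and -0.10. Of complex I, 18 of 42 tested probe sets were among the brightest 10%, so the lists also differed in signal. A difference between these lists was not tested.

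Marker lists of several tissues had median differences away from 0, while the summed signals of every list overlapped between the 2 genotypes. A sum of linear signals is weighted to the brightest markers of a list. Its overlap therefore does not show that the other markers were alike, and the heart muscle list had overlapping sums with a median of -1.01. Their part in the members' values was not tested. Of the 5 tested skeletal muscle markers 5 were higher in the mutant (median 0.44), with summed signals of 5004 to 6256 in siblings and 4721 to 8385 in mutants. Of 5 heart muscle markers 4 were lower (median -1.01; sums 10664 to 13239 and 10100 to 13225), and of 8 epidermis and periderm markers 7 (median -0.13; sums 71909 to 84462 and 58087 to 78796). Embryos were told apart by the heart reporter Tg(myl7:egfp), so the heart muscle values are not independent of the sorting. All 4 blood markers (median 1.06; sums 3021 to 4100 and 3725 to 14418), all 4 notochord markers (0.40; 3236 to 4211 and 2953 to 6847) and all 3 pronephros markers (1.04; 658 to 969 and 922 to 1973) were higher. Of 4 yolk markers 3 were lower (-0.19; 46304 to 59014 and 39562 to 49585), and of 5 nervous system markers 2 were lower (0.073; 9601 to 12479 and 11728 to 12233). After quantile normalization the medians of the epidermis and yolk lists were -0.0097 and -0.021. None of the marker genes passed the test.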

How the data were processed

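Gene expression was measured on 6 single-colour Affymetrix zebrafish arrays. The authors deposited 1 intensity per probe set and array, on a linear scale. Per the submitters' processing notes MAS5 was used, with its version and settings not stated there. In the deposited values a trimmed mean without the outer 2% at each end was 500.1 on all arrays. Arrays were grouped by the genotype in the labels. After removal of 115 control probe sets, 15502 remained, of which 10795 had 1 gene symbol, 135 had several and 4572 had none in the platform annotation; 10711 were matched to a RefSeq gene table, which changed no member's symbol.

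From the deposited intensities, log2(signal + 16) was computed, and the 25% of probe sets with the lowest mean were left out. Mutants were compared with siblings with limma 3.58.1 in R 4.3.3 (lmFit, and eBayes with an intensity trend), with Benjamini-Hochberg adjustment over the 11626 probe sets tested and a threshold of 0.05. The number of arrays limits the precision. Alternatives were quantile normalization, a common median, offsets of 1 and 64, other intensity filters, no trend, each array left out, and a block for the replicate number. Deviations of same-numbered arrays correlated only weakly at numbers 1 and 2 (0.19 and 0.12) and more at number 3 (0.48). For 4 arrays the best correlation was with the array of the same number, and for the remaining arrays it was not. On this limited ground a number was taken to mark a pair of arrays, although the labels do not tie them to a cross. Results with the block or by replicate number rest on this assumption.

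The members and gene lists were chosen with earlier results of these data known. Genes were named by rule. The rule took hand2, and for complexes I, III, IV and V the 3 members of smallest p and the 2 of highest signal. It also took all of complex II, assembly factors and regulators with p under 0.05, genes with several probe sets, paralogues of 1 subunit, and the leading 1 or 2 genes by p of each other list. Any other gene was named after its values were seen. Probe sets with several symbols were left out of the members.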

Additional observations from a re-analysis of the deposited data

How the results depend on the processing

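The median of all members stayed below 0 in every alternative, and no member passed the threshold in any. The number of members with an unadjusted p under 0.05 in limma was 2 as reported, both lower, against 1.03% of all tested probe sets lower. With the replicate block it was 8, all lower (2.6% lower). With quantile normalization and the replicate block it was 9, of which 8 were lower (3.35%) and 1 higher (3.57%). With no intensity filter it was 1 (against 1.34% lower), with a common median 5 (1.88%) and with no intensity trend 1 (0.903%). Over subunits only it was 1. Without both arrays of replicate 2 (chosen after seeing the data) it was 1, against 0.378% lower. With single arrays left out it was 0 to 21, against 0.507% to 4.69% lower. With the replicate block hand2 had an adjusted p of 0.0099, and the block changed no other call after adjustment. The median of complex III was -0.043 after quantile normalization, with and without the block, -0.21 with a common median, -0.086 without both arrays of replicate 2, and -0.21 to -0.060 with single arrays left out. The hand2 log2 difference ran from -2.65 to -2.36 with single arrays left out (limma, adjusted p = 0.018 to 0.060, above the threshold without wild-type replicate 1 or 2), and was -2.37 without both arrays of replicate 2 (adjusted p = 0.19); fewer samples entered these fits. Probe sets past the threshold then numbered 0 to 20, and 0 without both arrays. The median of all tested probe sets, 0.02 as deposited, was -0.011 after quantile normalization, with and without the block, and -0.060 with a common median.

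Of the 95 tested members, the difference changed sign in 10 after quantile normalization, in 15 without both arrays of replicate 2 and in 29 with 1 array left out, none of them past the threshold, and the cause was not tested. Of these, only probe sets among the 46 named by rule are given here. After quantile normalization, with and without the block, they were uqcrfs1 (0.011), uqcrh (0.056), COX1 (0.059, 0.068 and 0.18), atp5f1b (0.037) and cox6a1 (0.016). Without both arrays of replicate 2 they were sdhaf2 (0.004), COX1 (0.072), cox10 (0.32), ndufab1a (0.16 and 0.045), ndufaf1 (0.021 and 0.030) and cox6b1 (0.070). With single arrays left out, their ranges across 0 were -0.056 to 0.062 for sdhaf4, -0.14 to 0.015 and -0.31 to 0.22 for cox10, -0.24 to 0.090 for ndufab1a, -0.11 to 0.0028 and -0.19 to 0.010 for ndufaf1, -0.38 to 0.31 for cox6b1, -0.16 to 0.086 for sdhc, -0.13 to 0.025 for cox5aa, -0.14 to 0.051 for uqcrh, -0.13 to 0.0031 for ndufv2 (-0.17 without both arrays of replicate 2), -0.30 to 0.019 for sdhaf2 and -0.32 to 0.070 for atp5mc3a.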

Other observations

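A pair of respiratory chain probe sets carried several gene symbols and were left out of the members. The probe set of ndufa9a and ndufa9b, paralogous accessory subunits of complex I, was at 728.6, 862.5 and 629.5 in siblings and 777.5, 545.7 and 835.4 in mutants, with a log2 difference of -0.051 ± 0.20 (SE, n = 3 each). Its groups overlapped, and mutant replicate 2 was the lowest array. The probe set of atp5fa1, the alpha subunit of ATP synthase, and gcdha was at 7484.4, 7001.8 and 8157.3 in siblings and 7101.1, 6685.8 and 7884.6 in mutants. Its difference was -0.064 ± 0.13 as deposited and 0.073 after quantile normalization, and here too the groups overlapped.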
